A study of Mus musculus with 6 samples.

Results

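Chaperones fold and refold other proteins, and the genes described here encode the large ATP-driven chaperones and the proteins that work with them, in mouse samples labelled colon. Members were the genes whose platform symbol names an Hsp70, Hsp90, Hsp110, Hspd1 or Hspe1 protein, a subunit of the cytosolic chaperonin TRiC, a J-domain protein of class A, B or C, a BAG protein or 1 of a few Hsp90 helpers, with the small heat shock proteins left out. The rule took 81 of the 19505 genes with a symbol, each with 1 probe set. Of these, 42 encode proteins of the cytosol, 13 of the endoplasmic reticulum (ER) and 10 of mitochondria, and 16 were placed in no compartment. Trap1a was taken by its symbol only and encodes a tumour antigen, not a chaperone. Hspa8, Hsp90ab1, Dnaja1, Dnajb5 and Cct6a were not analysed here.

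The study asked which colon genes differ in C57BL/6J mice that swallowed mulberry bark exosome-like nanoparticles (MBELN). The 3 MBELN samples came from mice given a daily oral dose in 100 µl for 7 days. The 3 control samples have PBS in their titles and are labelled as control mice. Each sample was hybridised to 1 Affymetrix array as biotin-labelled cRNA made from 90 ng of RNA. Whether the samples are from different animals is not in the labels, and p-values here therefore reflect sample-to-sample spread that could be technical in part. That spread also holds the differences in tissue markers between arrays that are given next.

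The arrays did not share the genes of 1 tissue. Colon epithelium markers were above background for 8 of 10 genes on control 1, for 2 on MBELN 3 and for 0 on the other 4 arrays. Neuron and glia markers had a median log2 value of 16.99 on control 3, heart muscle markers 19.23 on MBELN 1, squamous epithelium markers 19.48 and skeletal muscle markers 15.30 on MBELN 2, and liver markers 19.86 on MBELN 3. Elsewhere the medians of these 5 lists lay between 4.59 and 9.10. The 9.10 was for liver markers on control 3, where 3 of 6 were above background. Smooth muscle markers had a median of 19.09 on control 1, with 6 of 6 above background, and 11.22 on MBELN 1, with 5 of 6. On control 2, 0 of 7 housekeeping genes were above background, against 7 of 7 on each other array. A probe set counts as above background on an array when its value exceeds 95% of the negative control probe sets on the same array. The thresholds were 8.14, 10.11 and 8.89 on control 1, 2 and 3, and 7.93, 9.34 and 8.47 on MBELN 1, 2 and 3. The same value can thus count on 1 array and not on another. Arrays are therefore described one by one, by their labels. In such bulk samples fewer cells of a type and less RNA per cell cannot be told apart.

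Hsp70 proteins hold unfolded stretches of other proteins through cycles of ATP use. J-domain proteins bring them their clients and start ATP hydrolysis, and Hsp110 and BAG proteins release the nucleotide so that the cycle can begin again. Hsp90 takes over clients that are nearly folded, such as kinases and steroid receptors, and TRiC encloses actin and tubulin while they fold. The ER and mitochondria have their own Hsp70, Hsp90 and J-domain proteins, since proteins enter both unfolded. In tissues of heavy protein secretion the ER set is known to be abundant, and in tissues rich in mitochondria the mitochondrial set.

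On 5 arrays between 24 and 50 chaperone genes were detected. Above background were 41, 0 and 37 of the 81 members on control 1, 2 and 3, and 50, 24 and 45 on MBELN 1, 2 and 3. Of all 22206 probe sets tested, 26%, 0.311% and 20.7% were above background on the control arrays and 27.7%, 14.3% and 23.1% on the MBELN arrays, in the same order. No member was above background on all 6 arrays, 19 (23.5%) were on the 5 arrays other than control 2, and 20 (24.7%) were on none. Of the 19505 genes with a symbol, 0.0974% were above background on 6 arrays, 8.29% on 5 and 55.6% on none. The 20 members include genes known from testis, such as Hspa1l, Dnajb3, Dnajb8, Dnajb13 and Cct6b. No member reached the highest value of any array, so none was at the upper limit of the scale.

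**Figure D1:**
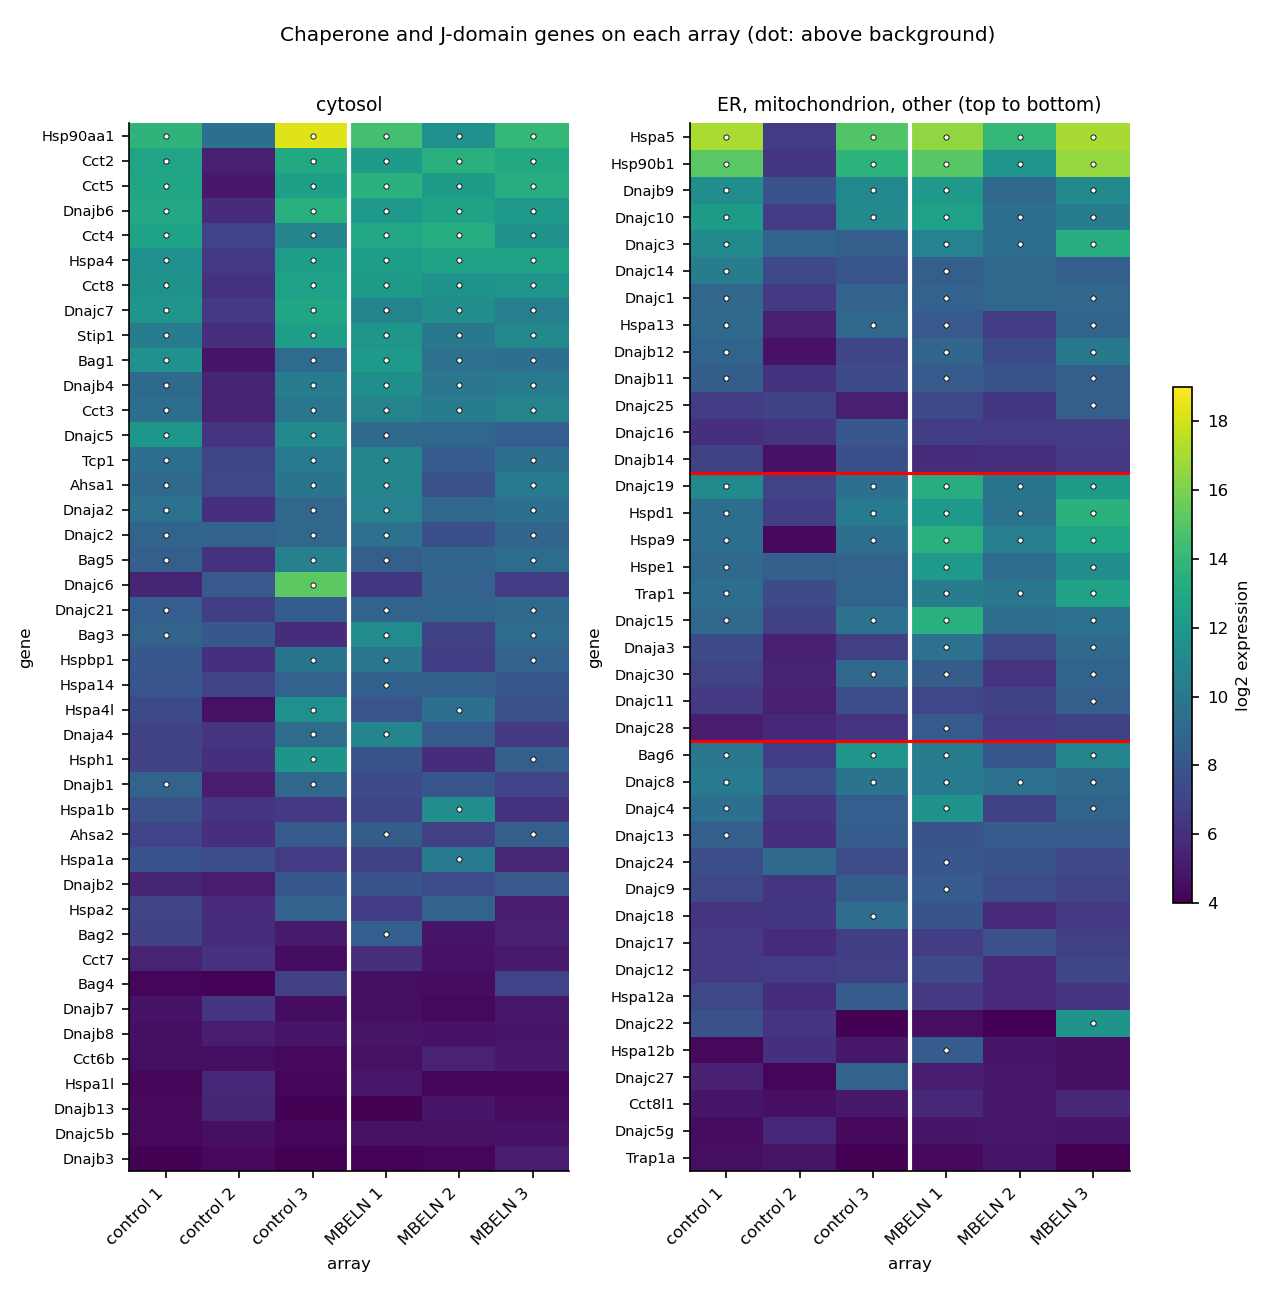
Log2 expression of the 81 members (rows) on the 6 arrays (columns), with the 42 cytosolic genes on the left and, on the right, from top to bottom, the 13 ER genes, the 10 mitochondrial genes and the 16 others, each block sorted by mean. A white dot marks a value above that array's background threshold. Control 2 has no dot, and the mitochondrial block is brightest on MBELN 1 and MBELN 3.

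The compartments were set side by side as each gene's shift, its log2 value minus its own median over the 5 arrays other than control 2. This avoids reading 1 probe set's level against another's. Mitochondrial members had a median shift of 1.99 on MBELN 1 and 1.49 on MBELN 3, against -0.65 on control 1, -0.42 on control 3 and -0.26 on MBELN 2. Cytosolic members had a median between -0.13 and 0.02 on these 5 arrays. The mitochondrial minus the cytosolic median was thus 1.99 on MBELN 1 and 1.49 on MBELN 3, and -0.52, -0.44 and -0.24 on control 1, control 3 and MBELN 2. At least 1 log2 unit above their median were 7 of the 10 mitochondrial genes on MBELN 1, which had heart markers, 7 on MBELN 3, which had liver markers, and 0 on the other 3. Of all probe sets tested 12.9% were on MBELN 1 and 11.3% on MBELN 3, and 11.5%, 16.7% and 13.1% on control 1, control 3 and MBELN 2. Of the 9515 above background on some array, 24% were on MBELN 1 and 20.5% on MBELN 3.

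ER members had a median shift of 0.20 on control 1 and -0.55 on control 3, of 0.00 on both MBELN 1 and MBELN 3, and of -1.24 on MBELN 2. They lay lowest on MBELN 2, the array with squamous and skeletal muscle markers, where 7 of 13 were at least 1 log2 unit below their median, against 10.3% of all probe sets and 20.8% of those above background on some array. Of the 13, 5 had their highest value on MBELN 3 and 0 their lowest, where 18.4% of all probe sets had their highest and 19.1% their lowest of these 5 arrays. On the flat control 2 the medians were -2.33 for cytosolic, -2.41 for ER and -2.56 for mitochondrial members, and the compartments lay close together there. Over all probe sets tested the median shift was 0.00 on each of the 5 arrays. These are descriptions of single arrays and have no test. The part that the tissue markers have in them was not tested.

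**Figure D2:**
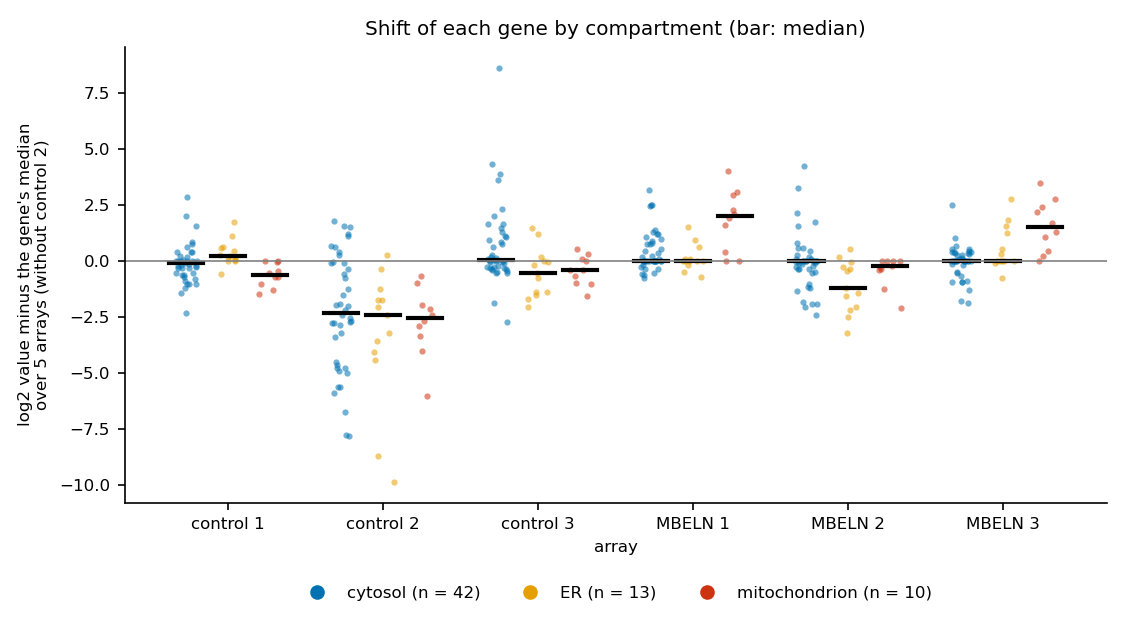
Shift of each gene (points, log2 value minus the gene's own median over the 5 arrays other than control 2) on the 6 arrays, for 42 cytosolic, 13 ER and 10 mitochondrial members, with the median as a black bar. The mitochondrial median is 1.99 on MBELN 1 and 1.49 on MBELN 3, the ER median is lowest at -1.24 on MBELN 2 apart from control 2, and all 3 medians are below -2 on control 2.

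Among the Hsp70 genes, Hspa5 and Hspa9 were above background on 5 arrays and the cytosolic stress-inducible pair on only 1. Hspa5, the ER Hsp70 known as BiP, was at 17.08, 6.61 and 14.94 on control 1, 2 and 3 and at 16.49, 13.98 and 17.02 on MBELN 1, 2 and 3. Hspa9, the mitochondrial Hsp70, was at 9.43, 4.40 and 9.44 on the control arrays and at 13.54, 10.46 and 12.86 on the MBELN arrays, in the same order. Hspa5 was high on control 1 and MBELN 3 alike, while every MBELN value of Hspa9 lay above every control value. Hspa13, a lesser known ER member, was above background on 4 arrays, with values from 6.69 to 9.11 on the 5 arrays other than control 2. Hspa12b, known from endothelium, was above background only on MBELN 1, at 8.36, and at most 6.05 elsewhere. Hspa14 lay between 8.02 and 8.70 on these 5 arrays but was above background only on MBELN 1, so its level elsewhere is not known. Hspa2 and Hspa12a were above background on no array, with at most 8.79 and 8.34.

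Hspa1a and Hspa1b encode the Hsp70 made in response to heat and other stress, and their start regions are shown because the copies are nearly identical. In the 250 bases before their starts (RefSeq, GRCm38.p6, minus strand, chr17:34972157-34972406 for Hspa1a and chr17:34959239-34959488 for Hspa1b) 3 positions differed, and 98.8% were identical. Capitals mark GAANNTTC, the core of a heat shock element, searched on both strands, which 7.86% of all 32851 promoter windows of 300 bases hold.
Hspa1a: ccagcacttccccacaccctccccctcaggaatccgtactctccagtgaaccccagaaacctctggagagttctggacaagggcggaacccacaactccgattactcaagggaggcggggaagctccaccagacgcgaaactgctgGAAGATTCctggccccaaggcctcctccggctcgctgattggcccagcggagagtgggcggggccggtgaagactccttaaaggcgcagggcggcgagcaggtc
Hspa1b: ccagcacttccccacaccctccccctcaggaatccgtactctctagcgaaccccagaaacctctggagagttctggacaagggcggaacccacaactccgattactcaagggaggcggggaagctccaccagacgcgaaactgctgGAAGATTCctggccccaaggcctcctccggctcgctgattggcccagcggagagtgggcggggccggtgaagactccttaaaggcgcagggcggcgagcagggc

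Hspa1a was at 7.77, 7.62 and 6.69 on the control arrays and at 6.97, 10.19 and 5.64 on the MBELN arrays. Hspa1b was at 7.71, 6.34 and 6.58 and at 7.11, 11.35 and 6.19. Both were above background only on MBELN 2. Their values on the other 5 arrays are below background and bound the difference only. Since the genes are near-identical copies, their probe sets may not tell them apart, and the pair is best read as 1 signal. Hsph1, the inducible Hsp110, did not share this array: it was at 6.89, 6.00 and 11.76 on the control arrays and at 7.92, 5.98 and 8.56 on the MBELN arrays. On control 3, the array with neuron and glia markers, it stood 3.20 log2 units above the next array. It was 1.65 above the control 2 background threshold there.

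The exchange factors fell into a broad and a patchy kind. Hspa4, a constitutive Hsp110, was at 11.51, 6.53 and 12.37 on the control arrays and at 12.42, 12.67 and 12.67 on the MBELN arrays. Apart from the flat control 2 it varied by only 1.16 log2 units. Bag6, which guards tail-anchored membrane proteins, was at 9.95, 6.77 and 11.85 on the control arrays and at 10.29, 8.11 and 10.75 on the MBELN arrays. Bag3, known for its role in muscle under mechanical load, was at 8.75, 8.13 and 5.99 on the control arrays and at 11.24, 6.92 and 9.25 on the MBELN arrays. Bag3 was highest on MBELN 1, by 1.99 log2 units over the next array, and so was Bag2, at 8.49 against at most 6.89. Hspa4l, a relative of Hspa4, was highest on control 3, at 11.53 against at most 9.46. Of the other exchange factors, Bag1 was above background on 5 arrays, Bag5 on 4, Hspbp1 on 3 and Bag4 on 0.

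Hsp90aa1, the stress-responsive cytosolic Hsp90, had the highest single value of all members. It was at 13.75, 9.47 and 18.28 on the control arrays and at 14.50, 11.58 and 14.00 on the MBELN arrays. Control 3 exceeded the next array by 3.78 log2 units. Stip1, which hands clients from Hsp70 to Hsp90, was above background on 5 arrays and also highest on control 3, at 12.32, with 10.00 to 11.96 on the others except control 2 (6.03). Ahsa1, which speeds the ATPase of Hsp90, was highest on MBELN 1, at 10.85, and its relative Ahsa2 lay between 6.86 and 8.56 on the 5 arrays other than control 2.

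The ER Hsp90, Hsp90b1 (also called Grp94), was at 15.16, 6.38 and 13.70 on the control arrays and at 15.09, 11.86 and 16.62 on the MBELN arrays. Its highest value was on MBELN 3, by 1.47 log2 units over the next array. Dnajc3, an ER co-chaperone of Hspa5, was at 11.19, 8.86 and 8.56 on the control arrays and at 10.64, 9.40 and 13.38 on the MBELN arrays, with MBELN 3 again the highest, by 2.19 log2 units. On MBELN 2 both lay lower than on control 1, MBELN 1 and MBELN 3, as did Hspa5.

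Hspa5, Hsp90b1 and Dnajc3 were the only members with an ER stress element, CCAAT and CCACG with any 9 bases between them, in a promoter window, searched on both strands from 250 bases before to 50 after the start. Windows were found for 68 of the 81 members and 12 of the 13 ER members. Of all 32851 windows, 39 (0.119%) hold the element. The 250 bases before each start are shown because they carry what these genes share, with the element in capitals (RefSeq, GRCm38.p6). Hspa5 is at chr2:34771840-34772089 on the plus strand, Hsp90b1 at chr10:86705445-86705694 on the minus strand and Dnajc3 at chr14:118937682-118937931 on the plus strand.
Hspa5: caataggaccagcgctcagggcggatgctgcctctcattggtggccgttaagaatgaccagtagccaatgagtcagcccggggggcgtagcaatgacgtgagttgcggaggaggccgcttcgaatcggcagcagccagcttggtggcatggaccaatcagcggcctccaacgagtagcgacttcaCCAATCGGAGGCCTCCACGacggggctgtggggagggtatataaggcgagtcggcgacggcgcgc
Hsp90b1: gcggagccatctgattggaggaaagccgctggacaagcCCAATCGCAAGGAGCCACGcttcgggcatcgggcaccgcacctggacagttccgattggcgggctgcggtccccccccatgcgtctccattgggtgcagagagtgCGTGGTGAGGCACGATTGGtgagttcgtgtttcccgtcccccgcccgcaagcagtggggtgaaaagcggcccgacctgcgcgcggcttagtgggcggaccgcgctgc
Dnajc3: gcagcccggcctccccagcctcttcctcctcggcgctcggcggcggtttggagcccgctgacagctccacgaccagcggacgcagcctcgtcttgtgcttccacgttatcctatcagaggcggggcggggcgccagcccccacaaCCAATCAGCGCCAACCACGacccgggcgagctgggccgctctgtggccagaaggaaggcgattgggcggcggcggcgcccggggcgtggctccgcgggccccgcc
Counted from the start, the element lies at -65 to -47 in Hspa5 and at -105 to -87 in Dnajc3. Hsp90b1 holds it in both orientations, at -212 to -194 and, on the other strand, at -107 to -89. A match is a description of these letters and not a measured site.

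**Figure D3:**
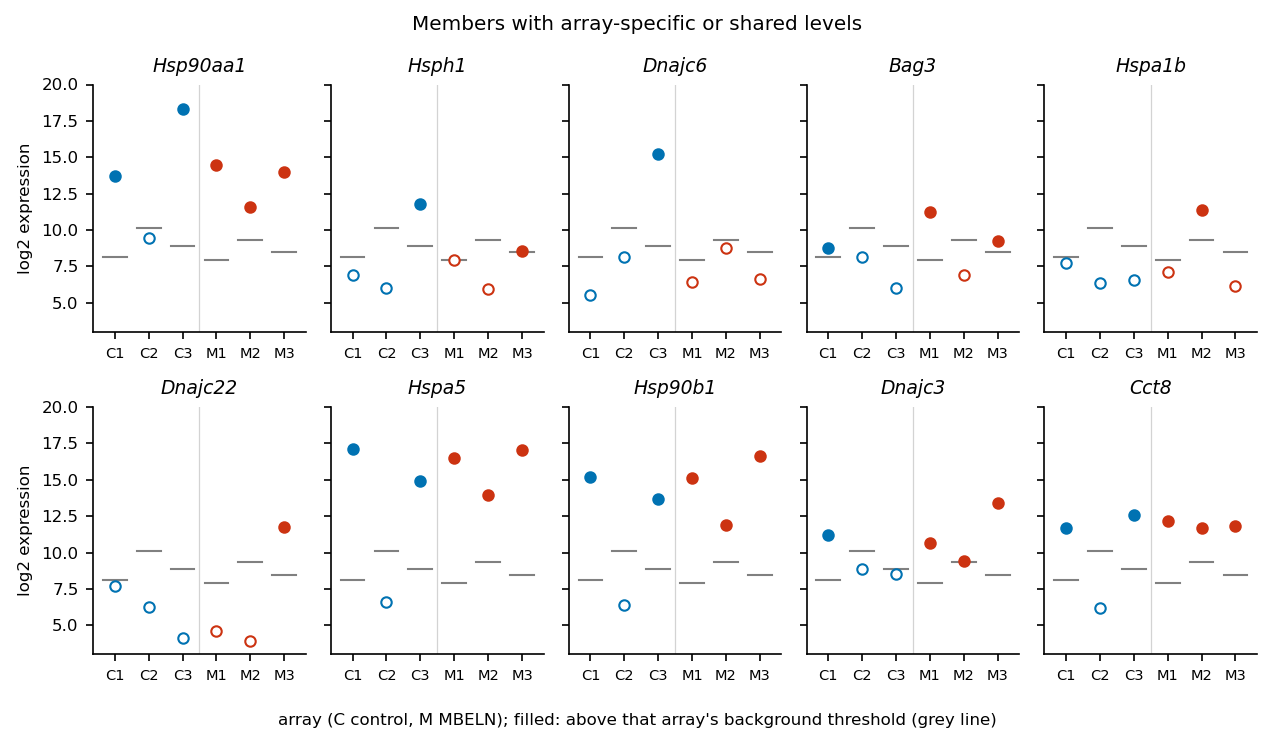
Log2 expression of 10 members on control arrays (C1 to C3, blue) and MBELN arrays (M1 to M3, red), with a grey line at each array's background threshold and open circles for values not above it. Hsp90aa1, Hsph1 and Dnajc6 peak on control 3, Bag3 on MBELN 1, Hspa1b on MBELN 2, and Hsp90b1, Dnajc3 and Dnajc22 on MBELN 3, while Cct8 is level on 5 arrays.

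Of the 9 TRiC genes, 6 were above background on some array. Over the 5 arrays other than control 2 these 6 varied by 0.90 to 2.56 log2 units, with a median range of 1.28, against 2.95 over the 61 members and 3.85 over the 9515 probe sets above background on some array. Cct2 was at 12.76, 5.33 and 13.10 on the control arrays and at 12.30, 13.50 and 13.10 on the MBELN arrays. Cct5 was at 12.85, 5.01 and 12.46 and at 13.57, 12.30 and 13.35. Cct3 was at 9.44, 5.48 and 9.87 and at 10.70, 10.29 and 10.73. All of these were low on control 2 only, and Cct8, at 11.69 to 12.59 on the other 5 arrays, had the narrowest range of the 6, at 0.90.

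Among the TRiC genes above background on some array, Cct4 and Tcp1 varied most. Cct4 was at 12.69, 7.03 and 10.81 on the control arrays and at 12.92, 13.27 and 11.72 on the MBELN arrays. Tcp1 was at 9.47, 7.11 and 10.15 and at 10.91, 8.36 and 9.56, and on MBELN 2 it was not above background. The subunits did not order the arrays alike, since among the 5 arrays other than control 2 Cct4 was lowest on control 3 and Cct8 highest there. Cct7, a subunit that every TRiC ring contains, was above background on no array, with values between 4.52 and 6.17. Cct6b, a testis form, and Cct8l1, a relative of Cct8, lay between 4.33 and 5.76 on all arrays.

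**Figure D4:**
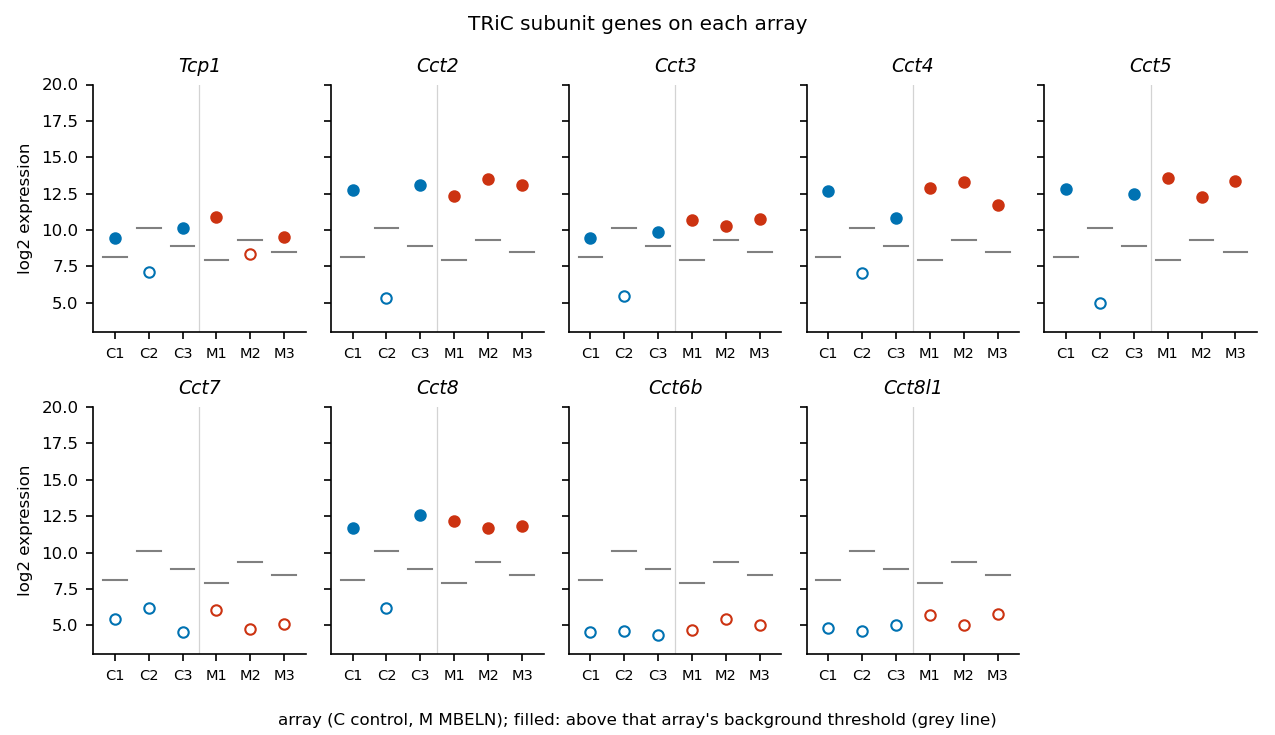
Log2 expression of the 9 TRiC genes on control arrays (C1 to C3, blue) and MBELN arrays (M1 to M3, red), with a grey line at each array's background threshold and open circles for values not above it. Cct2, Cct3, Cct4, Cct5 and Cct8 are above background on the 5 arrays other than control 2, and Cct7, Cct6b and Cct8l1 on none.

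Hspd1 and Hspe1 form the mitochondrial chaperonin and its lid and are transcribed away from each other from a shared stretch of DNA. The start of Hspe1 lies 216 bases from the nearer of the 2 starts of Hspd1 (RefSeq, GRCm38.p6). Between these starts is a run of heat shock units, shown here because both genes share it, at chr1:55088035-55088095, read on the plus strand. Capitals mark GAA, TTC and GAA with any 2 bases between neighbours, a heat shock element of 3 units, which matches on both strands with overlap and which 0.603% of all windows hold.
Hspe1: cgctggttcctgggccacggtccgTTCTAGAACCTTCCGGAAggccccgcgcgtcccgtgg
Of the other members only Dnajb6 and Hsph1 had this motif in a window, and 0 ER members did.

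Hspd1 was at 9.41, 6.77 and 10.13 on the control arrays and at 12.04, 9.71 and 13.59 on the MBELN arrays. Hspe1 was at 9.15, 8.52 and 8.80 and at 12.14, 9.23 and 11.42. Both stood high on MBELN 1 and MBELN 3 and lower on the other 4 arrays, with Hspd1 highest on MBELN 3 and Hspe1 on MBELN 1. Trap1, the mitochondrial Hsp90, was at 9.44, 7.46 and 8.85 on the control arrays and at 10.28, 9.88 and 12.62 on the MBELN arrays. It stood 2.34 log2 units above every other array on MBELN 3, the array with liver markers.

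Of the 6 mitochondrial J-domain genes, 4 were highest on MBELN 1, as were 17.5% of all probe sets among the 5 arrays other than control 2. Dnajc19, of the motor that pulls proteins through the inner membrane, was at 11.11, 7.08 and 9.50 on the control arrays and at 13.35, 9.86 and 12.15 on the MBELN arrays. Its relative Dnajc15 was at 8.995, 6.87 and 9.62 and at 13.55, 9.29 and 9.57. For Dnajc15, MBELN 1 exceeded the next array by 3.92 log2 units and the control 2 background threshold by 3.44. Dnaja3, a partner of Hspa9, was at 7.51, 5.35 and 6.84 and at 9.59, 7.27 and 9.19. All 3 were highest on MBELN 1, and only Dnaja3 was nearly as high on MBELN 3. Dnajc28 was at 5.18, 5.70 and 6.28 on the control arrays and at 8.28, 6.69 and 6.88 on the MBELN arrays, above background only on MBELN 1. Dnajc11 and Dnajc30, the other 2 mitochondrial members, ranged from 6.30 to 8.93 on the 5 arrays other than control 2.

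**Figure D5:**
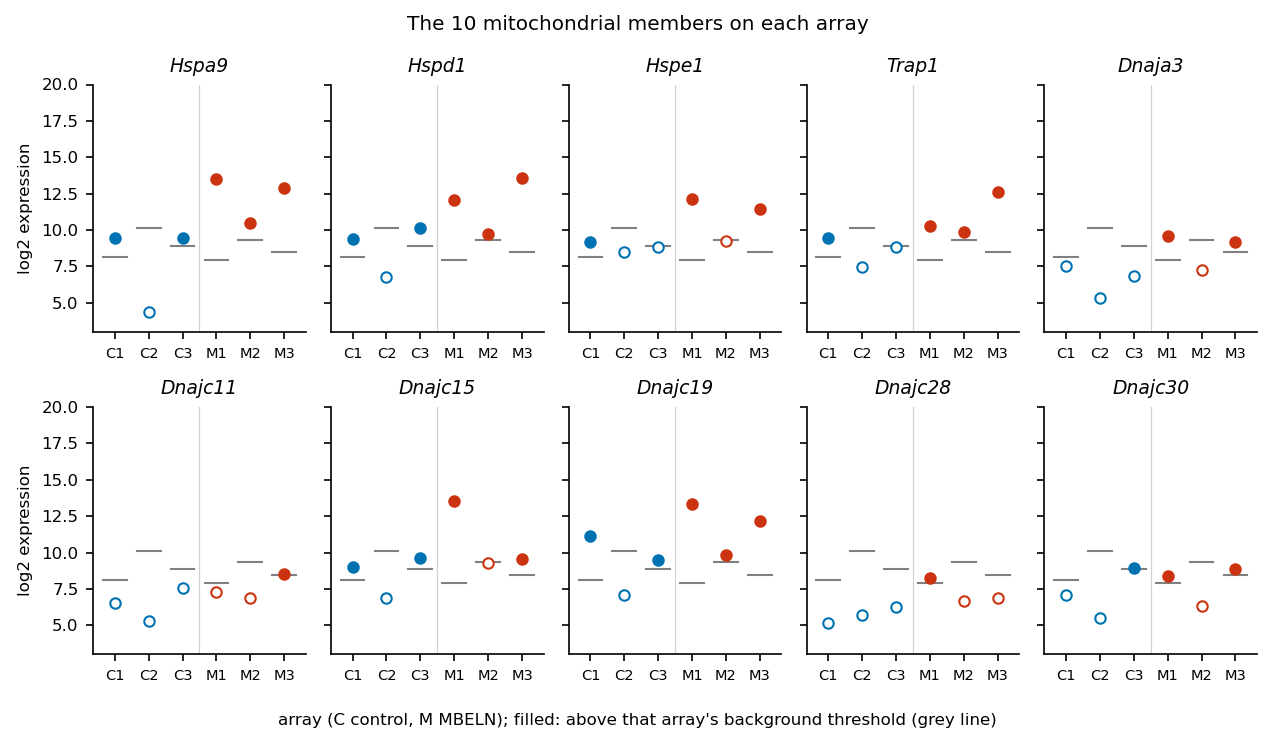
Log2 expression of the 10 mitochondrial members on control arrays (C1 to C3, blue) and MBELN arrays (M1 to M3, red), with a grey line at each array's background threshold and open circles for values not above it. Of the 10, 6 have their highest value on MBELN 1 and 3 on MBELN 3, and none is above background on control 2.

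J-domain proteins of the cytosol and ER ranged from steady to restricted to 1 array. Dnaja2, a general partner of Hsp70, was at 9.68, 6.04 and 8.97 on the control arrays and at 10.64, 9.09 and 9.46 on the MBELN arrays. Dnaja4 was at 6.91, 6.31 and 9.27 and at 10.83, 8.36 and 6.53. On MBELN 1 it exceeded the next array by 1.56 log2 units and the control 2 background threshold by 0.73. Dnajb6, which keeps proteins from aggregating, was at 13.05, 5.90 and 13.50 and at 12.03, 12.66 and 12.09. Dnajb6 was therefore level on the 5 arrays other than control 2, and Dnaja4 was not. Dnajb2, known from neurons, was above background on no array, at 5.57, 5.14 and 8.15 on the control arrays and at 7.92, 7.55 and 8.17 on the MBELN arrays. Dnajb1, the main heat-inducible J-domain protein, was above background on control 1 and control 3 only, at 8.75 and 9.04, and lay between 5.23 and 7.997 on the other 4 arrays.

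In the ER, Dnajb9, which binds the stress sensor Ire1, was at 11.34, 7.87 and 11.03 on the control arrays and at 12.05, 9.02 and 11.11 on the MBELN arrays. Dnajb12, an ER membrane protein of the degradation route, was at 8.81, 4.71 and 7.11 and at 8.89, 7.36 and 10.06. The first was highest on MBELN 1 and the second on MBELN 3, and both were low on MBELN 2 beside control 1. Dnajc10, which reduces disulphide bonds, was at 12.18, 6.63 and 11.08 on the control arrays and at 12.56, 9.48 and 10.32 on the MBELN arrays. Dnajc14 was the only member that stood at least 1 log2 unit above every other array on control 1, the array with colon markers, at 10.30 against at most 9.06.

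Class C held the members with the widest range. Dnajc6, the neuronal auxilin that strips clathrin from vesicles, was at 5.57, 8.17 and 15.23 on the control arrays and at 6.45, 8.74 and 6.63 on the MBELN arrays. It was above background only on control 3, 5.13 log2 units over the highest background threshold of the other arrays. Dnajc22 was at 7.71, 6.24 and 4.11 and at 4.58, 3.94 and 11.78, above background only on MBELN 3, 1.67 log2 units over the highest threshold of the other arrays. By contrast Dnajc7, which binds both Hsp70 and Hsp90, was at 11.79, 6.48 and 12.87 and at 10.79, 11.40 and 10.46, above background on 5 arrays. Dnajc5, the cysteine string protein of synaptic vesicles, was highest on control 1, at 11.95, and second on control 3, at 11.10, with at most 9.13 on the other 4 arrays. Of the 28 class C genes, 9 were above background on just 1 array and 4 on the 5 arrays other than control 2. Of all 19505 genes with a symbol, 16.6% were above background on 1 array and 8.29% on 5. Above background on no array were 6 of the 28 but 55.6% of all genes, so these shares have unlike bases.

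Counted over all members, 8 of 81 stood at least 1 log2 unit (2-fold) above every other array on control 3 while above background there, where 7.23% of all probe sets did. On MBELN 1 there were 9 members, against 4.78% of probe sets, and on MBELN 3 there were 7, against 5.02%. On MBELN 2 there were 2, the Hspa1 pair, against 3.06%, and on control 1 there was 1, against 4.32%. On control 2 there were 0, against 0.0946%. For 10 of these 27 members the next highest value was itself not above background, so the distance is not a measured fold. Dnajc18, Bag2, Hspa12b, Dnajc28, Dnajc25 and Dnajb12 led with values below the control 2 background threshold of 10.11. Their lead over control 2, at least, is therefore not even bounded. As shares of the 81 members these counts are 9.88% on control 3, 11.1% on MBELN 1 and 8.64% on MBELN 3. On MBELN 2 and control 1 they are 2.47% and 1.23%. Only values above background could count. On some array 61 of the 81 members were above background, but only 9515 of the 22206 probe sets. The shares of members and of probe sets thus have unlike bases, and a higher share of members is not a result about chaperones. Control 3's 8 genes were cytosolic or unplaced (Hsp90aa1, Hsph1, Hspa4l, Dnajc6, Dnajc7, Dnajc18, Bag5 and Bag6), and the 7 on MBELN 3 included 4 ER and 2 mitochondrial genes.

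Between the labelled groups no member passed. In limma's test with Benjamini-Hochberg adjustment over 22206 probe sets, 0 of 81 members and 0 of all probe sets (0%) had an adjusted p under 0.05, and the smallest adjusted p among members was 0.936. At an unadjusted p under 0.05 there were 4 members, all higher on MBELN arrays and all mitochondrial (Hspa9, Hspe1, Trap1 and Dnajc28), where 1.9% of probe sets were, 1.37% in that direction. For Hspa9 the MBELN mean was 12.29 ± 1.62 (SD, n = 3) and the control mean 7.76 ± 2.91 (SD, n = 3), a log2 difference of 4.53 (SE 1.63, limma adjusted p = 0.936) that was 2.85 without control 2. Hspe1 was 10.93 ± 1.51 against 8.83 ± 0.31, a difference of 2.11 (SE 0.84) that was 0.69 after quantile normalisation. Only 2 of its 3 MBELN values and 1 of its 3 control values were above background. Trap1 was 10.93 ± 1.48 against 8.58 ± 1.01, a difference of 2.35 that was 1.4997 without MBELN 3 and 1.53 after quantile normalisation, and only 1 of its control values was above background. Dnajc28 was above background on MBELN 1 only, so its difference is not a measured fold. Hspd1, whose groups overlapped, was 11.78 ± 1.95 against 8.77 ± 1.77. The control means include the flat control 2, and the count of 4 was 0 without MBELN 1, 0 without MBELN 3 and 1 after either filter on dim probe sets. Without control 2 it was 6, of which 1 was mitochondrial. No share over all probe sets is given for these settings, so their counts cannot be set beside the 1.9%.

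As a list, the 10 mitochondrial members had a median log2 difference of 2.21, and 10 of 10 differences were above 0, where 49.6% of all probe sets were and the median over all was -0.01. The median was 1.53 without control 2, 1.58 without MBELN 1 and 1.86 without MBELN 3. The 42 cytosolic members had a median difference of 0.52, with 30 above 0, and the 13 ER members one of 0.83, with 11 above 0. Without control 2 these were 0.09 and -0.18, and the mitochondrial median stayed the highest of the 3. Differences above 0 then numbered 9 of 10 mitochondrial, 25 of 42 cytosolic and 6 of 13 ER members, against 55.5% of all probe sets. Groups did not overlap for 10 of 81 members with MBELN higher, against 3.58% of probe sets, and for 0 with MBELN lower, against 3.26%. Of the 10, 4 were mitochondrial, among them Dnajc28, which was above background on MBELN 1 only. Cct6b, Cct8l1 and Dnajc5b were above background on no array. The other 3 were Hspa4, Cct3 and Dnajc21. Without control 2 the counts were 12 higher, against 10.9% of probe sets, and 9 lower, against 7.47%, which are 14.8% and 11.1% of the 81 members. The heart and liver markers that stood out on MBELN 1 and MBELN 3 move with the mitochondrial result, and their part in it was not tested.

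In the remaining classes the genes nearest to the threshold did not pass either. The MBELN mean of Hspa4 was 12.59 ± 0.14 (SD, n = 3) and its control mean 10.14 ± 3.15 (SD, n = 3), and its log2 difference of 2.45 was 0.65 without control 2 and 1.14 with array weights. Cct3 was 10.57 ± 0.25 against 8.26 ± 2.42, a difference of 2.31 that was 0.91 without control 2 and 1.33 with array weights. Dnaja3, not above background on any control array, was 8.68 ± 1.24 against 6.57 ± 1.10, and Dnajb2, above background on no array, 7.88 ± 0.31 against 6.29 ± 1.62. For Dnaja3 and Dnajb2 no fold is given, since values below background are only bounds.

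Other genes of protein folding were followed as a list of 42 measured genes, of which 0 passed in limma's test. An unadjusted p under 0.05 was found for 2 (St13 and Grpel1), where 1.9% of all probe sets had one. Differences were above 0 for 40 of the 42, where 49.6% of all probe sets were, and the median difference was 1.10. Without control 2, 29 of the 42 had differences above 0, against 55.5% of all probe sets, and the median was 0.37. Of the mitochondrial helpers, Grpel1 and Lonp1 were highest on MBELN 3 and next on MBELN 1. Grpel1, the exchange factor of Hspa9, was at 9.43, 6.41 and 7.86 on the control arrays and at 10.97, 9.77 and 11.54 on the MBELN arrays. Lonp1, a matrix protease, was at 7.11, 5.55 and 8.31 and at 9.81, 7.22 and 10.93. Of the ER helpers, P4hb and Hyou1 were highest on MBELN 3. P4hb, a disulphide isomerase, was at 12.39, 7.81 and 8.06 and at 12.72, 11.60 and 15.70, and Hyou1, the ER Hsp110, at 10.05, 4.39 and 10.28 and at 10.22, 7.74 and 12.16. Xbp1, the transcription factor of the unfolded protein response, was at 13.76, 6.35 and 10.61 and at 12.11, 11.83 and 14.12, highest on MBELN 3 and control 1 like Hspa5, while Ddit3, which is linked to cell death in that response, was above background only on MBELN 1, at 8.88.

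Among the cytosolic helpers, Unc45b, the myosin chaperone of striated muscle, was at 9.46 on MBELN 1, where heart markers were high, and at most 5.12 on the other arrays. Fkbp5, a glucocorticoid-responsive Hsp90 partner, was highest on MBELN 3, at 12.84, with 10.00 to 11.49 on the others except control 2 (7.12). St13, which steadies Hsp70, was at 9.54, 7.05 and 9.61 on the control arrays and at 10.68, 11.50 and 11.16 on the MBELN arrays, and Hsf2, a heat shock factor, at 6.88, 7.92 and 9.26 and at 9.06, 9.78 and 8.88. St13 was higher on each MBELN array than on each control array. Such an order held for 5 of the 42 genes (11.9%), St13 included, against 3.58% of all probe sets. The prefoldin subunits Pfdn5 and Vbp1, which pass actin to TRiC, were highest on MBELN 1, at 12.11 and 9.15.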

How the data were processed

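The deposited table holds log2 expression values for 28846 probe sets on 6 arrays, a scale inferred from the range of 3.38 to 19.93. Per the submitters' processing notes the authors used the Transcriptome Analysis Console 4.0. The sources used here give no summarisation, normalisation between arrays or genome build, and the deposited log2 values were used as they stand. All 6 columns were used. After removal of 6640 control probe sets, 22206 were tested. Of these, 19572 have 1 symbol in the platform annotation, 0 have several and 2634 have none.

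Groups of 3 were compared with limma 3.58.1 in R 4.3.3 (lmFit and eBayes, 2-sided, Benjamini-Hochberg over 22206 probe sets, threshold 0.05). A simulation then asked how many of 50 altered probe sets this comparison finds. With the observed spread it recovered 0% at changes of 1 and 2 log2 units, 16% at 4 and 54% at 8. That spread also holds the tissue marker differences between arrays, so these rates do not describe replicates of 1 tissue. With a spread of 0.3 it recovered 62% at 1 log2 unit and 100% at 2, 4 and 8. Means, shifts and motif searches were made with Python 3.11.15. For arrays, their number limits the precision. Compartments and roles come from lists written from textbook knowledge. Members and lists were chosen with earlier results of these data known.

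By the naming rule, each class gives every array's value for the 2 members of highest mean, the 2 of widest range over the 5 arrays other than control 2 among those above background somewhere, and the 1 with the smallest unadjusted p. Other genes named, among them Dnajc3, Dnajc5, Dnajc10, Dnajc14 and Dnajc15, were chosen after their values were seen, and Trap1a and Cct8l1 were placed in their classes then. Promoter windows come from RefSeq. Alternatives were leaving out each array, dropping dim probe sets (under the 25th percentile or the median), array weights, blocking on replicate number, quantile normalisation or equal array medians, and eBayes with trend and robust settings. Groups that do not overlap, and differences above 0 among members and related genes, were also counted without control 2, chosen after seeing the data. For shifts, the reference over all 6 arrays and only members above background were tried.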

Additional observations from a re-analysis of the deposited data

How the results depend on the processing

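Neither a probe set nor a member passed an adjusted p of 0.05 under any alternative run, and the smallest adjusted p among members lay between 0.765 and 0.9996. The median difference of ER members was 0.83 and ranged from -0.18 (without control 2) to 1.48 when single arrays were left out. It was the only median to turn. The other ranges were 0.17 to 1.14 for all members, 0.09 to 1.29 for cytosolic and 1.53 to 2.91 for mitochondrial ones. The count of 4 members at an unadjusted p under 0.05 was 1 with either filter on dim probe sets and with an intensity trend, and 0 to 6 when single arrays were left out. On MBELN 1 and MBELN 3 mitochondrial members stayed 1.72 to 1.98 and 1.29 to 1.64 above cytosolic ones under all 4 alternatives run. On MBELN 2 the ER minus the cytosolic median was -1.225 and ranged from -1.44 to -0.65 under the same alternatives. It was nearest to 0 with the reference over all 6 arrays, and -0.78 after quantile normalisation. Averaging the probe sets of a gene was not run, since each member has 1.

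With the replicate number as a block (replicate block), 0 members passed and 6 had an unadjusted p under 0.05. No share over all probe sets is given for that count. Same-numbered arrays had correlations of deviations of 0.11, 0.12 and -0.05 over all probe sets. The arrays differ in tissue markers, so these correlations cannot tell whether same-numbered samples share more than a number.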

Other observations

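The probe set of Cct7 was above background on 0 of 6 arrays (4.52 to 6.17), as were those of Cct6b and Cct8l1, while Cct2, Cct3, Cct4, Cct5 and Cct8 were above background on 5 and Tcp1 on 4. Dnajc24 had its highest value, 9.11, on control 2, below that array's background threshold of 10.11.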
